A study of Homo sapiens with 9 samples.

Results

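The miR-17-92 cluster is a group of 6 microRNA hairpins cut from a single primary transcript, and 10 of its mature strands were followed through parental and drug-resistant colorectal cancer cells. The members were taken by name from a list of mature strands, which matched 10 of the 1198 mature miRNAs counted, and 9 of these 10 were among the 367 miRNAs with enough counts to be tested. The list holds hsa-miR-17-5p, hsa-miR-17-3p, hsa-miR-18a-5p, hsa-miR-18a-3p, hsa-miR-19a-3p, hsa-miR-19b-3p, hsa-miR-19b-1-5p, hsa-miR-20a-5p, hsa-miR-20a-3p and hsa-miR-92a-3p, written without the human prefix from here on. miR-19b-1-5p was the member that did not pass the filter on low counts.

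The cluster is transcribed from the host gene MIR17HG, whose transcription is driven by the MYC oncoprotein, and it is often called oncomiR-1. Its products repress inhibitors of growth and promoters of cell death, among them p21 (CDKN1A) and BIM (BCL2L11). They also repress the E2F1 transcription factor. Each hairpin gives a 5p and a 3p strand, of which 1 is usually kept by Argonaute and the other is mostly degraded, so that strands of 1 primary transcript can differ widely in level.

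Small RNA libraries were sequenced from 3 lines of HCT116, an epithelial colorectal carcinoma line, with 3 biological replicates a line and 9 libraries in all. The groups are parental HCT116, a subline resistant to 5-fluorouracil (labelled HCT_FU and called HCT-FU-c here) and a subline resistant to oxaliplatin (labelled HCT_Oxa, HCT-Oxa-c here). 5-fluorouracil blocks thymidylate synthase, and oxaliplatin is a platinum compound that crosslinks DNA. Both sublines were derived from HCT116 by unbroken exposure to slowly rising drug concentrations, and serum, penicillin and streptomycin were in the medium of all lines. The sample labels give RPMI as that medium for every line, whereas the study's methods name DMEM for HCT116. Each drug is represented by 1 subline, so that effects of a drug and of a particular subline cannot be told apart.

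Levels are given as CPM, counts per 1000000 counts of a library after TMM scaling, which adjusts each library total by a trimmed mean of the ratios between libraries. The libraries held 856383 to 2207538 counts, of which miR-21-5p alone took 40.0% to 57.1% and the 10 members 1.34% to 2.85%. A count of 3, taken as the floor, corresponded to 1.34 to 4.01 CPM. The 5 listed epithelial miRNAs (miR-200c-3p, miR-141-3p, miR-192-5p, miR-194-5p and miR-215-5p) summed to 9576 to 12654 CPM in every line. By contrast, the 4 blood cell miRNAs summed to 1.57 to 16.4 CPM, the 2 endothelial ones to 512 to 1091 CPM and the 2 of smooth muscle and fibroblasts to 177 to 675 CPM. The sums were at most 8.02 CPM for the striated muscle list, of which 1 of 3 was counted, and 2466 to 3554 CPM for the 2 neuronal ones. The count filter was passed by 4 of the 5 epithelial, 0 of the 4 blood cell and 1 of the 2 neuronal miRNAs. A sum over a list does not show the level of each miRNA in it. Replicate 3 of every line stood apart from replicates 1 and 2, and the replicate 3 libraries deviated together. Replicates 1 and 2 of different lines deviated alike whether or not their numbers matched. Each comparison is given without and with the replicate number as a block.

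The mature sequences are shown because shared seeds, near-identical copies and the 2 strands of a hairpin decide how the members can be compared. They were taken from RefSeq annotation of GRCh38.p14, which held all 10 members, and are written 5′ to 3′ with the seed, bases 2 to 8, in capitals. The first group shares the seed AAAGUGC, the second is miR-18a-5p, the third shares GUGCAAA, and miR-92a-3p has the seed AUUGCAC.
miR-17-5p: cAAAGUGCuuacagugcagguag
miR-20a-5p: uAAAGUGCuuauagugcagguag
miR-18a-5p: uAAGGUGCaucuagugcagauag
miR-19a-3p: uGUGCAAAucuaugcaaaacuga
miR-19b-3p: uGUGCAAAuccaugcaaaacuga
miR-92a-3p: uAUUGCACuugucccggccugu

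Counting positions from 1 at the 5′ end, with the base of the first-named miRNA before the position, miR-17-5p and miR-20a-5p differ at C1U and C12U. miR-19a-3p and miR-19b-3p differ only at U11C over their 23 aligned bases. miR-18a-5p and miR-17-5p differ at 6 of 23 positions, and G4A is the difference that lies inside the seed.

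The other strands of the same hairpins follow, and each has a seed of its own. The last of them, miR-92a-1-5p, is not a listed member and is shown as the opposite strand of miR-92a-3p.
miR-17-3p: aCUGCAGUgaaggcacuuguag
miR-18a-3p: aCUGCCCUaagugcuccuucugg
miR-20a-3p: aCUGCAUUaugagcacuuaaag
miR-19b-1-5p: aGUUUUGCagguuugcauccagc
miR-92a-1-5p: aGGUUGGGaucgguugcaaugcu

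All 6 hairpins are encoded within 787 bases of chromosome 13, on its plus strand, at chr13:91350605-91351391 of GRCh38, in the order MIR17, MIR18A, MIR19A, MIR20A, MIR19B1 and MIR92A1. GENCODE release 29 places all 6 in intron 3 of the MIR17HG-201 transcript, in exon 3 of MIR17HG-202 and in exon 2 of MIR17HG-203, and MIR17HG itself spans chr13:91347820-91354579. miR-19b-3p is also encoded by MIR19B2 and miR-92a-3p by MIR92A2, both on the X chromosome, so that their counts cannot be assigned to a locus by sequence. The hairpins of miR-18a (chr13:91350751-91350821) and miR-20a (chr13:91351065-91351135), whose strand ratios shifted in the same direction in replicate 3 of every line, are shown with both mature strands in capitals.
MIR18A: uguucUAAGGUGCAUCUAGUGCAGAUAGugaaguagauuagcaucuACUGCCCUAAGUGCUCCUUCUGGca
MIR20A: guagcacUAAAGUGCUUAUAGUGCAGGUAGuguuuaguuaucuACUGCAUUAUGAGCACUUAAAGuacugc

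**Figure D1:**
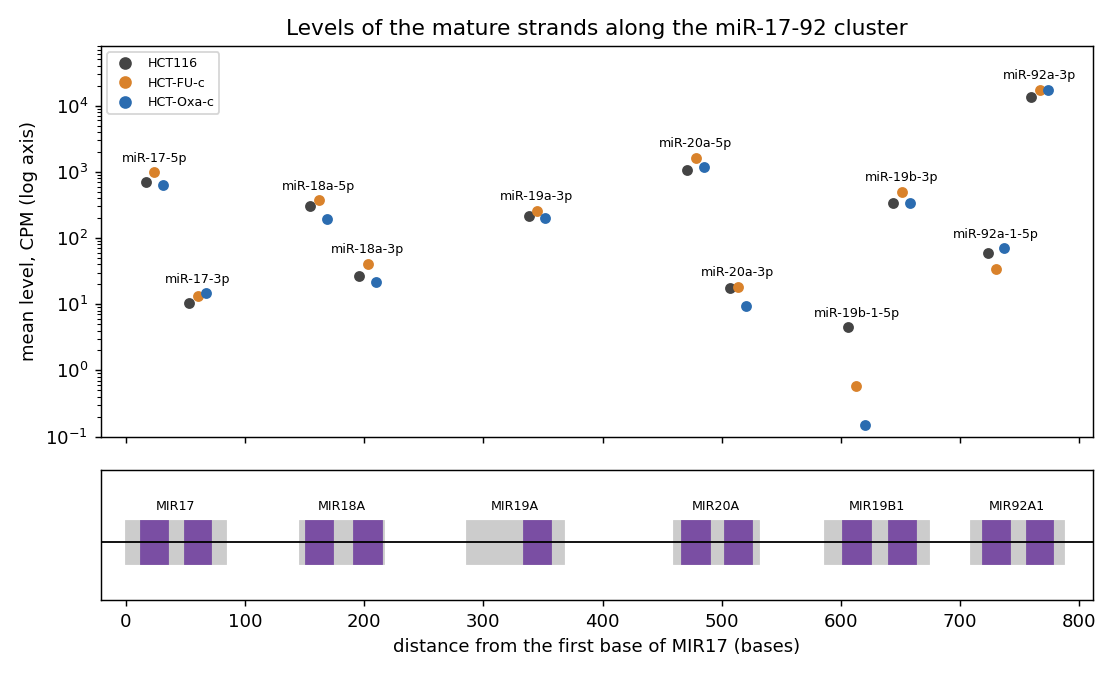
Mean level of each mature strand in CPM (log axis, mean of 3 libraries a line, offset sideways for legibility) above its place in the cluster, in bases from the first base of MIR17; grey boxes are hairpins and purple boxes mature strands. miR-92a-3p at the 3′ end of the cluster lies far above every other strand in all lines, and the weaker strands of miR-17, miR-18a, miR-20a and miR-19b-1 lie below 50 CPM. miR-92a-3p and miR-19b-3p are drawn at their chromosome 13 place, although each is also encoded on the X chromosome.

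miR-92a-3p was by far the most abundant member. It stood at 15910, 11267 and 13031 CPM in the 3 HCT116 libraries, 22850, 13123 and 15695 CPM in HCT-FU-c and 18470, 16785 and 16485 CPM in HCT-Oxa-c. All 3 HCT-Oxa-c libraries were above all 3 HCT116 libraries, whereas HCT-FU-c overlapped both other lines and had the widest spread, with its replicate 1 the highest library of all. The mean was 13403 ± 2343 CPM in HCT116, 17223 ± 5040 CPM in HCT-FU-c and 17247 ± 1070 CPM for HCT-Oxa-c (SD, n = 3 each).

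The pair with the AAAGUGC seed, miR-20a-5p and miR-17-5p, which repress p21 and E2F1, came next. miR-20a-5p stood at 777, 897 and 1481 CPM in HCT116, 1587, 1350 and 1943 CPM in HCT-FU-c and 1178, 969 and 1435 CPM in HCT-Oxa-c. Replicate 3 was the highest library of each line, and the lines overlapped. miR-17-5p stood at 545, 586 and 1010 CPM in HCT116, 963, 886 and 1087 CPM in HCT-FU-c and 610, 542 and 723 CPM in HCT-Oxa-c. Here every HCT-Oxa-c library was below every HCT-FU-c library, and HCT116 overlapped both, with HCT-FU-c only through its high replicate 3.

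miR-19b-3p and miR-19a-3p, the pair with the GUGCAAA seed, followed. miR-19b-3p stood at 213, 307 and 509 CPM in HCT116, 507, 541 and 437 CPM in HCT-FU-c and 319, 310 and 378 CPM in HCT-Oxa-c. miR-19a-3p stood at 187, 193.7 and 263 CPM in HCT116, 237, 254 and 286 CPM in HCT-FU-c and 226, 167 and 199 CPM in HCT-Oxa-c. For both, all HCT-Oxa-c libraries lay below all HCT-FU-c libraries, and HCT116 overlapped each subline.

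miR-18a-5p, whose seed differs from that of miR-17-5p at 1 base, stood at 213, 233 and 456 CPM in HCT116, 286, 239 and 584 CPM in HCT-FU-c and 146, 123.9 and 303 CPM in HCT-Oxa-c. Replicate 3 was again the highest library of each line, at around the same step in all of them, and the lines overlapped for that reason. Within each replicate number HCT-Oxa-c was the lowest line and HCT-FU-c the highest.

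The remaining strands were scarce. miR-18a-3p stood at 27.2, 45.7 and 8.02 CPM in HCT116, 52.2, 54.1 and 16.7 CPM in HCT-FU-c and 28.3, 25.5 and 10.3 CPM in HCT-Oxa-c. miR-20a-3p stood at 19.7, 25.7 and 8.02 CPM, 20.4, 28.4 and 5.96 CPM, and 10.5, 10.7 and 7.19 CPM in the same order. For these 2 strands replicate 3 was the lowest library of each line, the reverse of their 5p partners, and the lines overlapped. miR-17-3p ranged from 5.00 to 27.7 CPM over the 9 libraries, on 6 to 30 counts a library, with no common place of replicate 3. miR-19b-1-5p had 10 counts in replicate 3 of HCT116 and at most 1 count in each of the other 8 libraries, which is below the floor of 3 counts.

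**Figure D2:**
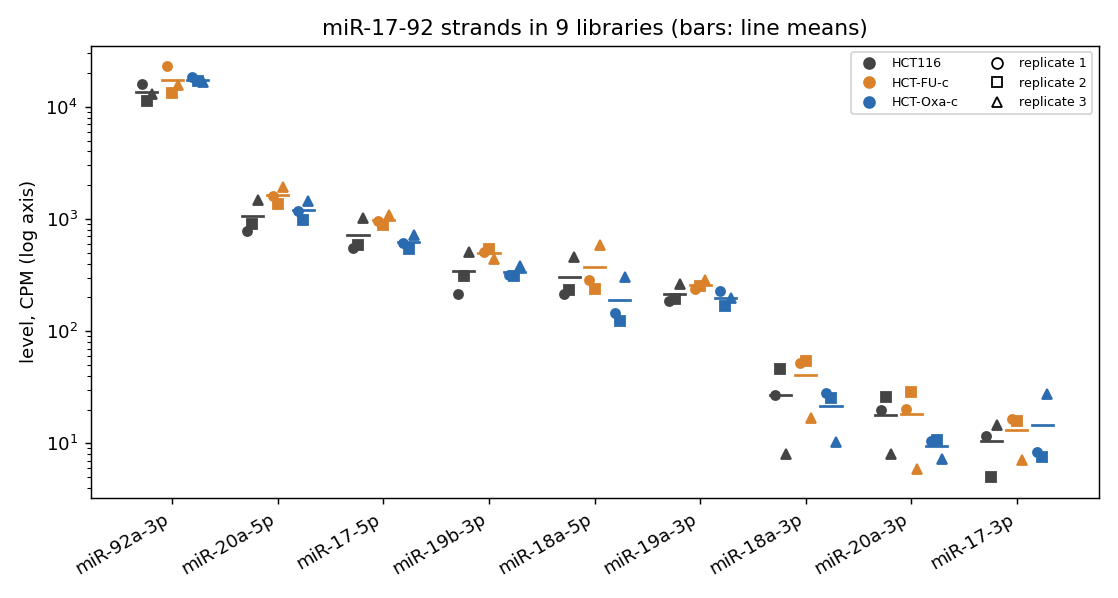
Level in CPM (log axis) of the 9 tested members in each of the 9 libraries; colours are lines, symbols are replicate numbers and horizontal bars are line means. The main strands are clearly separated from the weaker ones, and replicate 3 (triangles) lies at the top of each line for miR-20a-5p, miR-17-5p and miR-18a-5p and at the bottom for miR-18a-3p and miR-20a-3p.

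The order of the mean levels was miR-92a-3p, miR-20a-5p, miR-17-5p and miR-19b-3p in every line, followed by miR-18a-5p and miR-19a-3p, which changed places in HCT-Oxa-c. miR-92a-3p did not overlap with miR-20a-5p in any line. miR-20a-5p and miR-17-5p overlapped across the HCT116 libraries, but miR-20a-5p was the higher of them within each of these 3 libraries. miR-19b-3p and miR-18a-5p overlapped in HCT116 and HCT-FU-c, and miR-18a-5p and miR-19a-3p in all lines. Every main strand was above every weaker strand. Among miR-18a-3p, miR-20a-3p and miR-17-3p, libraries overlapped in every line, except that miR-18a-3p lay just above miR-17-3p in HCT-FU-c (lowest 16.69 against highest 16.63 CPM). miR-18a-3p was above miR-20a-3p within each library of HCT-FU-c and HCT-Oxa-c. The members are 22 or 23 bases long, so that levels compare without a correction for length, although the efficiency of adapter ligation for each sequence was not measured.

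Summed over the 10 members, the levels came to 16086 ± 2257 CPM in HCT116, 21024 ± 5082 CPM in HCT-FU-c and 19835 ± 1054 CPM for HCT-Oxa-c (SD, n = 3 each). The sum was carried by miR-92a-3p, and without it the other 9 members summed to 2684 ± 947, 3802 ± 513 and 2589 ± 466 CPM. The 9 library values of this smaller sum were 1994, 2293 and 3764 CPM in HCT116, 3668, 3369 and 4368 CPM in HCT-FU-c, and 2527, 2156 and 3083 CPM in HCT-Oxa-c. HCT-FU-c libraries were all above HCT-Oxa-c libraries on this measure, and HCT116 overlapped both, with HCT-FU-c only through its replicate 3.

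The first comparison asked whether resistance to oxaliplatin came with a different level of the members. HCT-Oxa-c had higher miR-92a-3p than HCT116 in 3 of 3 same-numbered pairs and lower miR-18a-5p and miR-20a-3p in 3 of 3 pairs, while the other members were mixed. Of all miRNAs, 20.7% were higher and 23.7% lower in all 3 pairs. In edgeR's quasi-likelihood test, 0 of the 9 tested members passed an adjusted p of 0.05, beside 2.45% of all 367 miRNAs. None of the 9 had an unadjusted p below 0.05 either, against 38 of 367 in the whole table, and DESeq2 called 0 of 9 in this and both other comparisons. Of the 9, 3 were higher and 6 lower, with a median log2 difference of -0.12 beside -0.01 over all miRNAs.

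With the replicate number as a block, 1 of 9 members passed in this comparison, beside 14.7% of all miRNAs in either direction and 5.18% in the lower direction. It was miR-18a-5p, with a log2 difference of -0.68 ± 0.17 (SE) and an edgeR adjusted p of 0.00685, against 0.869 without the block. The call was lost when replicate 2 of HCT116 (adjusted p 0.143), replicate 1 of HCT-Oxa-c (0.0579) or replicate 2 of HCT-Oxa-c (0.0765) was left out of the blocked edgeR model. miR-18a-5p also passed without the block when replicates 1 and 2 alone were used, a setting chosen after seeing the data. For miR-92a-3p the log2 difference was 0.38 ± 0.15 (SE) with the block, with an edgeR adjusted p of 0.11 and a 95% interval from 0.06 to 0.70. It was the 1 member of 9 whose HCT-Oxa-c libraries all lay above those of HCT116, as 8.99% of all miRNAs did. miR-20a-3p, a strand of 5 to 54 counts a library, was lower by a log2 difference of -0.90 ± 0.44 (SE), with an edgeR adjusted p of 0.211 with the block.

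The second comparison asked the same of resistance to 5-fluorouracil. All 9 tested members had a higher fitted level in HCT-FU-c than in HCT116, with a median log2 difference of 0.39 beside 0.02 over all miRNAs, and miR-20a-3p turned to -0.04 with size factors in place of TMM. In the edgeR test without the block, 0 of 9 passed, beside 0% of all miRNAs, and none of the 9 had an unadjusted p below 0.05, against 15 of 367. Of the 9, 6 were higher in all 3 same-numbered pairs, as 21.5% of all miRNAs were, namely miR-17-5p, miR-18a-5p, miR-18a-3p, miR-19a-3p, miR-20a-5p and miR-92a-3p. All 9 were higher within replicate 1 and within replicate 2, and 6 of 9 within replicate 3, where 55.0%, 52.3% and 45.0% of all tested miRNAs were higher. The members share their libraries, so that in every comparison they are not independent observations. No member's HCT-FU-c and HCT116 libraries were free of overlap, beside 8.72% of all miRNAs.

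With the replicate block, 1 of 9 members passed, beside 5.45% of all miRNAs and 1.63% in the higher direction. This was miR-20a-5p, with a log2 difference of 0.66 ± 0.15 (SE) and an edgeR adjusted p of 0.0173, against 0.913 without the block. It was lost when replicate 1 of HCT116 (adjusted p 0.0976), replicate 2 of HCT116 (0.0847), replicate 1 of HCT-FU-c (0.0725) or replicate 1 of HCT-Oxa-c (0.108) was left out of the blocked edgeR model. Its partner miR-17-5p had a log2 difference of 0.50 ± 0.16 (SE) and miR-19b-3p of 0.61 ± 0.21 (SE), with edgeR adjusted p of 0.073 and 0.0901 in the blocked model. miR-92a-3p had a difference of 0.34 ± 0.15 (SE), with a blocked edgeR adjusted p of 0.217. When replicates 1 and 2 alone were used without the block, the setting chosen after seeing the data, 2 members passed, miR-20a-5p and miR-19b-3p.

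The third comparison set the sublines against each other. HCT-Oxa-c was lower than HCT-FU-c in all 3 same-numbered pairs for 6 of 9 members, as 27% of all miRNAs were, and its libraries lay wholly below those of HCT-FU-c for 3 of 9, miR-17-5p, miR-19a-3p and miR-19b-3p, as 10.6% of all miRNAs did. In the edgeR test without the block, 0 of 9 passed, beside 4.36% of all miRNAs. Of the 9, only miR-17-5p had an unadjusted p below 0.05 (edgeR p 0.0475), against 62 of 367 in the whole table. The median log2 difference of the members was -0.56 beside -0.07 over all miRNAs, with 7 of 9 lower.

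With the replicate block, 5 of 9 members passed and all 5 were lower in HCT-Oxa-c, beside 26.4% of all miRNAs in either direction and 11.7% in the lower direction. They were miR-18a-5p at -0.95 ± 0.17 (log2 difference ± SE, adjusted p 0.00018), miR-17-5p at -0.65 ± 0.16 (0.0041), miR-20a-5p at -0.45 ± 0.15 (0.0331), miR-18a-3p at -0.93 ± 0.32 (0.0355) and miR-19b-3p at -0.59 ± 0.20 (0.0381) in edgeR. miR-18a-5p thus stood 1.94-fold lower in HCT-Oxa-c. It passed in each of the 9 blocked models that left out 1 library, with log2 differences from -1.04 to -0.80. The other 4 did not all hold, since the number of members passing fell to 1 without replicate 1 or replicate 3 of HCT-Oxa-c and to 2 or 3 in 5 of the other 7 models. With replicates 1 and 2 alone and no block, again chosen after seeing the data, 3 members passed, miR-17-5p, miR-18a-5p and miR-19b-3p.

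miR-92a-3p did not pass in that comparison. Its log2 difference between the sublines was 0.04 ± 0.15 (SE) with the block, with an edgeR adjusted p of 0.878 and a 95% interval from -0.28 to 0.36. The 95% intervals of miR-18a-5p, from -1.30 to -0.61, and of miR-17-5p, from -0.98 to -0.32, did not reach that of miR-92a-3p. The difference between members was not itself tested. The blocked 95% intervals of 5 of the 9 members took in a change of 1 log2 unit in this comparison, so that differences of that size are not excluded for them.

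**Figure D3:**
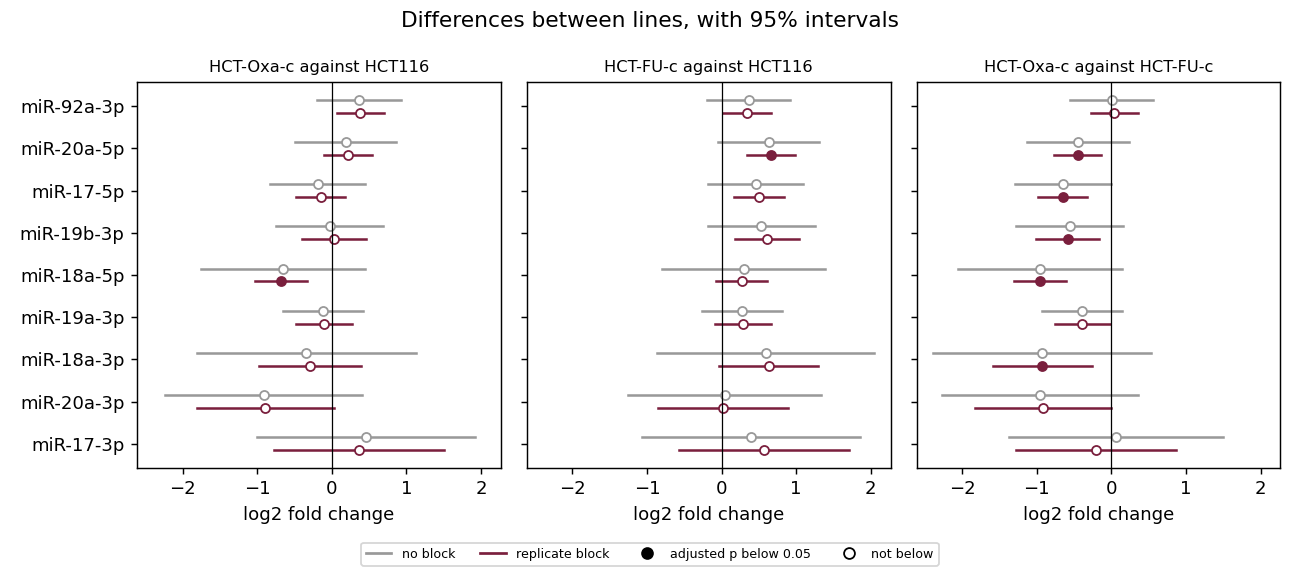
Log2 difference between lines for each tested member with its 95% interval, from edgeR without the replicate block (grey) and with it (dark red); filled points have an adjusted p below 0.05 over all 367 miRNAs. Filled points are miR-18a-5p in HCT-Oxa-c against HCT116, miR-20a-5p in HCT-FU-c against HCT116, and 5 members below 0 in HCT-Oxa-c against HCT-FU-c, where miR-92a-3p sits at 0.04.

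The stoichiometry of the 6 main strands was compared within libraries, where library scaling cancels. These values are a description with no test. miR-92a-3p made up 89.2%, 83.6% and 77.8% of the 6 main strands in HCT116, against 86.5%, 80.1% and 78.3% for HCT-FU-c and 88.2%, 88.8% and 84.4% for HCT-Oxa-c. The lines overlapped, and replicate 3 had the lowest share in each of them.

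Among the other 5 main strands miR-20a-5p held the largest share. It made up 40.2%, 40.5% and 39.8% of them in HCT116, against 44.3%, 41.3% and 44.8% for HCT-FU-c and 47.5%, 45.9% and 47.2% for HCT-Oxa-c. The 3 lines did not overlap on this measure. The SD within a line was 0.322, 1.91 and 0.885 percentage points, even though the levels behind it moved widely between replicates. Such a share also depends on the other strands in the sum, and no background of shares in other sets of miRNAs is given. The corresponding ratio of miR-20a-5p to miR-17-5p, the strands with the same seed, was 1.42 to 1.53 in HCT116, 1.52 to 1.79 in HCT-FU-c and 1.79 to 1.99 in HCT-Oxa-c. Of the 15 ratios between main strands, the libraries of HCT-Oxa-c and HCT116 did not overlap for 2, miR-20a-5p over miR-17-5p and miR-20a-5p over miR-18a-5p. Over all 67161 ratios of tested miRNAs 19% did not overlap in that comparison, so that 2 of 15 is near the background. In HCT-FU-c against HCT116 and between the sublines 0 of 15 were free of overlap, beside 8.58% and 23.9% of all ratios.

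The mean share of miR-18a-5p had the reverse order of lines. Its share of the 5 strands was 11.0%, 10.5% and 12.3% for HCT116, 7.98%, 7.32% and 13.5% for HCT-FU-c and 5.90%, 5.87% and 9.97% for HCT-Oxa-c. All HCT-Oxa-c libraries were below all HCT116 libraries, and HCT-FU-c overlapped both, with HCT116 only through its replicate 3. The ratio of miR-18a-5p to each other main strand overlapped between HCT-Oxa-c and HCT116, except the ratio to miR-20a-5p. No background is given for the miR-18a-5p share. Set against miR-92a-3p, 1 count of miR-18a-5p corresponded to 28.6 to 74.6 counts of miR-92a-3p in HCT116, 26.9 to 80.0 in HCT-FU-c and 54.4 to 135.5 in HCT-Oxa-c. The shares of miR-19a-3p and miR-19b-3p overlapped between all lines, at 6.56% to 9.65% and 10.1% to 16.5% of the 5 strands.

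**Figure D4:**
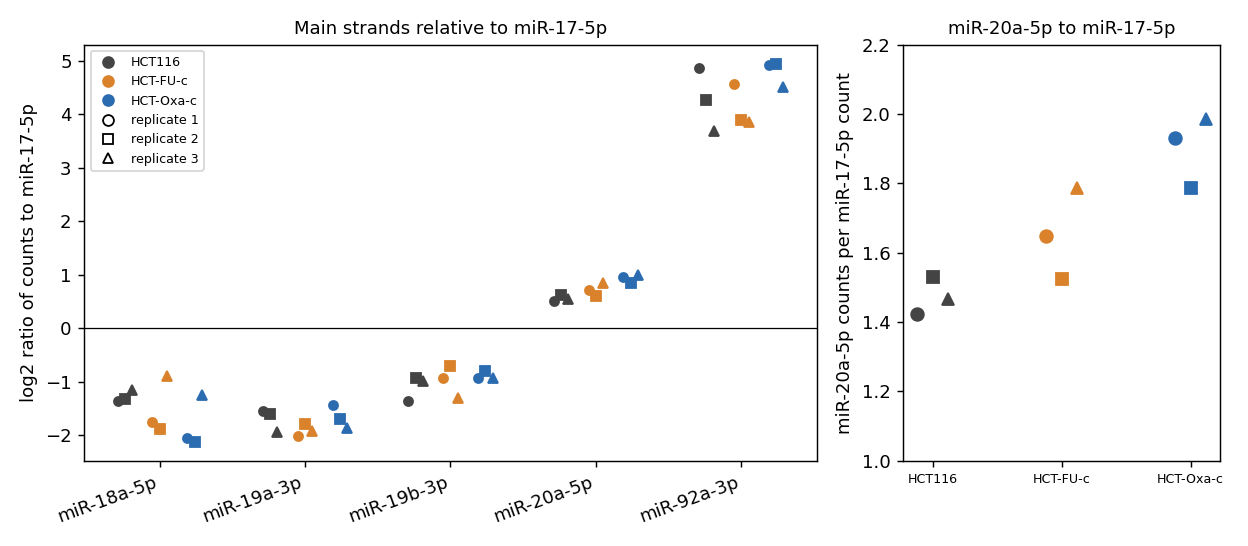
Left, log2 ratio of the counts of each main strand to those of miR-17-5p in each library; right, counts of miR-20a-5p per count of miR-17-5p (axis from 1, linear). Colours are lines and symbols replicate numbers. The right panel runs from 1.42 to 1.53 in HCT116 and from 1.79 to 1.99 in HCT-Oxa-c. HCT-FU-c lies between, at 1.52 to 1.79, and overlaps both at its ends.

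Strand ratios were compared next, since the 2 strands of a hairpin are made in equal number and differ only after processing. The 5p strand was the main strand of miR-17, miR-18a and miR-20a, and the 3p strand of miR-19b and miR-92a. The minor strand is given below as a share of both strands with an exact (Clopper-Pearson) 95% interval, which covers counting error only.

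miR-18a had the most even strands in replicates 1 and 2 of every line. miR-18a-3p made up 11.3% (interval 8.20% to 15.1%), 16.4% and 1.73% (0.637% to 3.73%) of miR-18a in replicates 1, 2 and 3 of HCT116, 15.4%, 18.5% and 2.78% for HCT-FU-c, and 16.2%, 17.1% and 3.28% for HCT-Oxa-c. Replicate 3 was far below the others in every line, beyond counting error, and the lines overlapped. miR-20a-3p made up 2.47%, 2.79% and 0.539% of miR-20a in HCT116, 1.27%, 2.06% and 0.306% for HCT-FU-c, and 0.883%, 1.096% and 0.498% for HCT-Oxa-c. Replicate 3 was again the lowest library of each line, and within replicates 1 and 2 HCT-Oxa-c was the lowest line. miR-17-3p made up 0.654% to 3.69% of miR-17, with the extremes in replicate 3 of HCT-FU-c and replicate 3 of HCT-Oxa-c.

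In a limma fit over 84 strand pairs, 0 of the 4 member pairs (miR-17, miR-18a, miR-20a and miR-19b-1) passed in any of the 3 comparisons, without the block or with it, and none had an unadjusted p below 0.05. The fit without the block called 0% of all pairs in each comparison, and the blocked fit called 0% in HCT-Oxa-c against HCT116, 1.19% in HCT-FU-c against HCT116 and 7.14% between the sublines. The largest difference among the 3 pairs with both strands above the count filter was in miR-20a, whose log2 ratio of 5p to 3p was 1.00 ± 0.56 (SE) higher in HCT-Oxa-c than in HCT116 with the block, with a limma adjusted p of 0.545. Its 95% interval ran from -0.11 to 2.10, so that a change of several-fold in the ratio is not excluded. For miR-18a the blocked difference between the sublines was -0.07 with an interval from -0.95 to 0.80, and both strands were lower for HCT-Oxa-c by similar amounts, as given above.

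The weaker strand of miR-92a is no member but was tested. miR-92a-1-5p, which comes from the chromosome 13 locus alone, stood at 32.6, 17.2 and 125.6 CPM in HCT116, 28.0, 12.1 and 62.0 CPM in HCT-FU-c and 33.6, 55.0 and 120 CPM in HCT-Oxa-c. Replicate 3 was the highest library of each line and the lines overlapped. Between the sublines it was higher in HCT-Oxa-c in 3 of 3 pairs, by a log2 difference of 1.16 ± 0.33 (SE) with the block (edgeR adjusted p 0.0121), against 1.05 and an edgeR adjusted p of 0.646 without it. The strand from the same primary transcript thus differed in the direction opposite to miR-17-5p, miR-18a-5p, miR-18a-3p, miR-19b-3p and miR-20a-5p. It made up 0.0921% to 0.955% of miR-92a. Over 98 pairs with locus-specific strands added, its log2 ratio to miR-92a-3p was 1.08 ± 0.37 (SE) higher in HCT-Oxa-c with the block, with a limma adjusted p of 0.0565, and 0.977 without it. With replicate 3 as a factor in place of the block, a setting chosen after seeing the data, the limma adjusted p was 0.0488. Since miR-92a-3p may also come from MIR92A2, this ratio is not that of 1 hairpin alone. The other unlisted strand, miR-19a-5p, had at most 1 count a library.

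**Figure D5:**
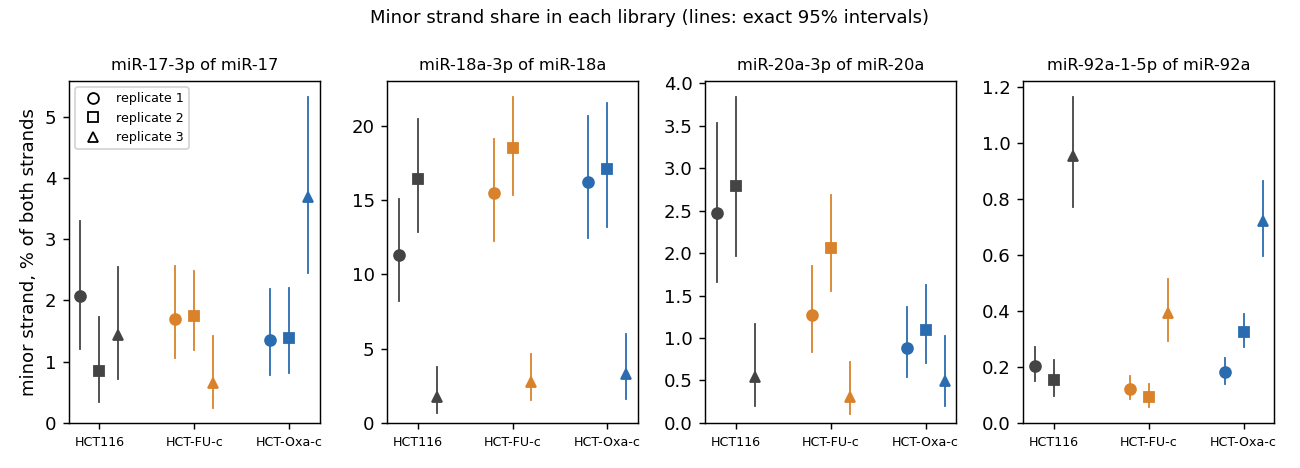
Weaker strand as a percentage of both strands in each library for miR-17, miR-18a, miR-20a and miR-92a, with exact 95% intervals; colours are lines, symbols are replicate numbers, and each panel has its own scale from 0. Replicate 3 (triangles) lies below replicates 1 and 2 in every line for miR-18a and miR-20a and above them for miR-92a.

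The place of replicate 3 was measured for each member, as a description with no test. Averaged over the lines, replicate 3 was above the mean of replicates 1 and 2 by a log2 difference of 1.12 for miR-18a-5p, 0.55 for miR-20a-5p and 0.47 for miR-17-5p, and below it with -1.67 for miR-18a-3p and -1.26 for miR-20a-3p. miR-92a-3p differed by -0.09 and miR-92a-1-5p by 1.87. The 5p to 3p ratio was 6.89-fold higher in replicate 3 for miR-18a and 3.52-fold higher for miR-20a. It was 3.90-fold higher for miR-92a-1-5p over miR-92a-3p, and 7.24-fold and 1.92-fold higher for the related miR-93 and miR-106b. The mean was 0.949-fold for miR-17 and 1.09-fold for the related miR-25. In level, 3 of 9 members had replicate 3 above the other replicates in every line and 2 of 9 below, beside 31.3% and 25.9% of all miRNAs. The ratios of miR-18a and miR-20a were above in every line, as 29.8% of all strand pairs were. Those of miR-92a-1, miR-93 and miR-106b were above in every line too, but those of miR-17, miR-19b-1 and miR-25 were not. Such shifts were thus common in the table, where replicate 3 lay outside replicates 1 and 2 on the same side in all 3 lines for 52.4% of the 84 strand pairs, and the median absolute log2 shift was 0.71 for levels and 0.99 for ratios. The part of RNA quality, library preparation or sequencing run in it was not tested.

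The members were also set beside their relatives. The list held 19 strands, those of the paralogous clusters, miR-92b-3p and the unlisted arms, of which 13 had a row and 8 were tested. The X-linked cluster from miR-106a to miR-363 was barely detected, with 1.43 to 15.5 CPM for miR-106a-5p and at most 2 counts a library for miR-18b-5p, miR-20b-5p and miR-363-3p. The cluster of miR-106b and miR-25 was abundant, at 649 to 989 CPM for miR-106b-5p, 3116 to 7736 CPM for miR-93-5p and 4361 to 10144 CPM for miR-25-3p. miR-92b-3p, which shares the seed of miR-92a-3p, ranged from 1240 to 4226 CPM. In the blocked edgeR model miR-106b-5p, miR-106b-3p, miR-93-5p, miR-93-3p, miR-25-3p and miR-92b-3p did not pass in any of the 3 comparisons. miR-25-5p passed between the sublines, where it was 2.14-fold higher for HCT-Oxa-c with an adjusted p of 0.0265, against 0.24 without the block.

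Together with these relatives, the members supplied different shares of each seed. miR-17-5p and miR-20a-5p held 25.3 ± 1.73% of the counts with the AAAGUGC seed in HCT116, 32.0 ± 5.53% in HCT-FU-c and 24.2 ± 3.35% for HCT-Oxa-c (mean ± SD of 3 libraries), and the lines overlapped. miR-92a-3p held 59.0 ± 8.02%, 64.8 ± 9.06% and 64.4 ± 9.15% of the AUUGCAC seed. By contrast, miR-18a-5p held at least 99.2% of its seed in every library, and miR-19a-3p with miR-19b-3p held 100% of theirs. Mature strands other than the members therefore carried most of the AAAGUGC counts and almost none of those with the miR-18a-5p seed. No other strand with the GUGCAAA seed was counted. These shares are of mature sequences, and the part of miR-19b-3p from MIR19B2 or of miR-92a-3p from MIR92A2 cannot be told from them.

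Outside the members and the listed relatives, the tested miRNAs most like the cluster, by the correlation of log2 CPM with the log2 summed level of the 10 members over 9 libraries, were miR-99a-5p (Pearson r 0.756, Spearman rho 0.517), miR-532-5p (0.738, 0.717) and miR-29c-3p (0.688, 0.55) among 350 candidates. The 9 libraries share the replicate pattern described above, and miR-99a-5p lay at only 4.29 to 17.4 CPM. The summed level itself spanned 13560 to 26519 CPM, a 1.96-fold range, and mostly follows miR-92a-3p. Among the members, the levels of miR-17-5p correlated with those of miR-20a-5p (r 0.913, n = 9 libraries), miR-19a-3p (0.907), miR-19b-3p (0.878) and miR-18a-5p (0.834). With those of miR-92a-3p they correlated at 0.0614. The 5p and 3p strands of 1 hairpin correlated at -0.466 for miR-18a, -0.501 for miR-20a and 0.344 for miR-17. These values include the shifts of replicate 3, and no background of other miRNA pairs is given.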

How the data were processed

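Small RNA was sequenced in 9 libraries. Per the labels, RNA was extracted with RNAzol RT and libraries were prepared with the NEXTflex Small RNA-Seq v3 kit. The authors deposited raw read counts per mature miRNA and a normalized signal (counts divided by size factors), and the latter was not used for tests. The submitters' processing notes name CASAVA 1.8, Bowtie 1.1.2, DESeq2 and GRCh38.p7. How reads that match several loci were counted is not given in the sources used here.

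The counts as deposited were analysed in R 4.3.3. miRNAs were kept by filterByExpr (minimum count 10, minimum total 15), scaled by TMM and tested with edgeR 4.0.16 (quasi-likelihood, prior count 0.125, all 9 libraries in 1 fit, line as the only term). Benjamini-Hochberg adjusted p-values cover all 367 miRNAs, with a threshold of 0.05. SE is the log2 difference divided by the root of F. Strand ratios, log2 of 5p over 3p counts with 0.5 added to each, were tested with limma 3.58.1. The scripts were tested on simulated data. Same-numbered libraries, which carry the replicate numbers of the sample labels, correlated in their deviations from the line means at 0.366 to 0.733. Differently numbered ones correlated at -0.658 to 0.598, and every negative value involved a replicate 3. Between replicates 1 and 2 of different lines the correlation was 0.375 to 0.598, against 0.366 to 0.627 where these numbers matched. The numbering was treated as a pairing, although it set apart only replicate 3. Replicates of a line differed by far more than counting noise (chi-square per degree of freedom 11.3 to 459). Without the block, p-values are set against the spread between these biological replicates. With the block, they are set against the spread left after the replicate numbers are fitted. Alternatives were other scalings, filters and pseudocounts, DESeq2 1.42.0, the block and left-out libraries. Named were all members, the listed relatives that had a row and the 3 miRNAs that best correlated with the members' sum. The members and lists were chosen with earlier results of these data known. The comparisons with HCT116 share its libraries.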

Additional observations from a re-analysis of the deposited data

How the results depend on the processing

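The number of members passing, 0 in each comparison, was the same with other size factors, total counts, TMM without miR-21-5p, DESeq2, both other count filters, only the 6 libraries compared and each library left out without the block. With the replicate block it was 1 in HCT-Oxa-c against HCT116, 1 in HCT-FU-c against HCT116 and 5 between the sublines, and the block changed no strand ratio call of a member. The following settings were chosen after seeing the data. Replicates 1 and 2 alone gave 1, 2 and 3 members, and replicate 3 as a factor 1, 1 and 5, out of 43, 13 and 67 and 54, 15 and 92 miRNAs in all, where the block called 54, 20 and 97 and no block 9, 0 and 16. Total counts moved the median of all miRNAs by 0.17 in HCT-FU-c against HCT116 and by -0.19 between the sublines. Without miR-19b-3p and miR-92a-3p, which have more than 1 locus, miR-20a-5p made up 46.1%, 50.3% and 54.1% of the main strands in HCT116, HCT-FU-c and HCT-Oxa-c, against 6.62%, 7.98% and 6.03% with them; fewer strands in the sum make the share larger.

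Some differences changed sign, and the cause was not tested. For HCT-Oxa-c against HCT116, miR-19b-3p (-0.03) was 0.0097 with other size factors, 0.012 with DESeq2, 0.026 without miR-21-5p in the scaling and with the block, 0.052 with no filter beyond 1 count, 0.050 with at least 10 counts in every library, 0.29 with replicates 1 and 2 and 0.016 with replicate 3 as a factor; with replicates 1 and 2, miR-17-5p was 0.043, miR-17-3p -0.039 and miR-19a-3p 0.061. For HCT-FU-c against HCT116, miR-20a-3p was -0.037 with other size factors and with DESeq2, and the miR-17 strand ratio -0.34 with replicates 1 and 2. Between the sublines, miR-17-3p was -0.19 with total counts, -0.21 with the block, -0.94 with replicates 1 and 2 and -0.19 with replicate 3 as a factor, and miR-92a-3p -0.16 with total counts. The strand ratio of miR-19b-1 was 0.15 with a pseudocount of 5 and 0.35 with replicates 1 and 2, which gave 0.32 for miR-17 and 0.023 for miR-18a.

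Leaving out 1 library at a time without the block, HCT-Oxa-c against HCT116 ran from -0.32 to 0.12 for miR-17-5p, -0.28 to 0.81 for miR-17-3p, -0.76 to 0.31 for miR-18a-3p, -0.19 to 0.029 for miR-19a-3p, -0.25 to 0.35 for miR-19b-3p, and for strand ratios -0.76 to 0.016 for miR-17 and -1.36 to 0.50 for miR-18a. HCT-FU-c against HCT116 ran from -0.0045 to 0.70 for miR-17-3p, -0.22 to 0.73 for miR-18a-5p, -0.42 to 0.39 for miR-20a-3p, and for strand ratios -0.31 to 0.47 for miR-17, -1.38 to 0.57 for miR-18a, -2.01 to 0.27 for miR-19b-1 and -0.026 to 1.48 for miR-20a. Between the sublines it ran from -0.68 to 0.41 for miR-17-3p, -0.18 to 0.32 for miR-92a-3p, and for strand ratios -0.91 to 0.86 for miR-18a, -0.86 to 0.36 for miR-19b-1 and -0.30 to 1.02 for miR-20a. Strands under 30 counts a library limit the precision of the ratios.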
